A study of Rattus norvegicus with 12 samples.

Results

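Apolipoproteins are the protein shells of the particles that carry lipids in blood, and the hepatocyte is their main source in the liver. Apolipoprotein B is loaded with lipid in the endoplasmic reticulum by the microsomal triglyceride transfer protein, encoded by Mttp, and leaves the cell as very low density lipoprotein (VLDL). Apolipoproteins A-I and A-II form high density lipoprotein (HDL), while the C and E proteins and apolipoprotein A-V govern how fast particles lose triglyceride and are taken up.

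The 10 genes described here (Apoa1, Apoa2, Apoa4, Apoa5, Apob, Apoc3, Apoe, Apof, Apoh and Mttp) were taken by gene name from the non-control probes of every array. They are 10 of 35906 named genes and have 13 of the 45598 probes. Apoa4, Apob and Apoc3 have 2 probes each, and the Apoe probe is spotted 10 times, which gives 22 spots in all.

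The arrays are 12 one-colour Agilent arrays of RNA from liver cells of F344 rats (DPPIV+ strain), in 4 groups of 3. Small hepatocytes, a proliferating cell of the adult rat liver, were selected with magnetic beads for CD44 on day 9 after plating and grown on Matrigel. At passage 2 they spent 3 h on dishes coated with laminin-111 (the LN111 group), with laminin-511 (LN511) or again with Matrigel (Mat). The medium had no serum and held dexamethasone, insulin, nicotinamide at 10 mM and EGF at 10 ng/mL. Mature hepatocytes taken straight from fresh livers (MH) are the study's control and were not cultured. All 3 coatings thus share the sort, the earlier growth on Matrigel and the medium, and a difference from MH includes all of these. Whether the replicates are separate rats or cultures is not labelled, so each p-value rests on a spread between samples that may be technical.

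Marker genes separated the 2 kinds of sample as labelled. Hepatocyte markers were well above background for 9 or 10 of 10 genes on every array, and their summed signal, in units of the array's 75th percentile, was 186.9 to 550.8 in the cultured cells and 1262 to 1497 in MH. Progenitor or biliary markers were above background for 8 of 8 genes in the cultured cells (summed 20.8 to 100.1) and for 1 or 2 in MH (0.232 to 0.252). The MH samples also held RNA of other liver cells: Kupffer cell or macrophage markers were present for 8 of 8 genes (15.9 to 18.0, against 0.158 to 0.937 in the cultured cells) and sinusoidal endothelial markers for 6 of 6 (8.78 to 9.55, against 0.0696 to 0.553). Stellate cell or fibroblast markers summed to 37.95 to 67.85 in LN111, 2.07 to 9.77 in LN511, 16.3 to 25.0 in Mat and 1.66 to 1.96 in MH. Mesothelial markers summed to 7.34 to 30.3 in the cultured cells and 0.0414 to 0.066 in MH, enterocyte markers to 2.495 to 5.22 and 1.04 to 1.22, and erythroid markers to no more than 0.0152 and 0.116. In the cultured cells the stellate, mesothelial and enterocyte sums follow 1 bright gene each (Col1a1, Msln and Cdx1), and some genes of these lists went the other way. In log2 of the same units, Pdgfrb was -5.12 to -3.21 in LN511 and -1.99 to -1.26 in MH. Fabp2 was -6.87 to -3.30 in LN111 and -1.93 to -0.98 in MH. Lrat was -4.09 to -1.07 in LN111 and -0.88 to -0.17 in MH. In such bulk RNA, fewer cells of a type and less RNA per cell cannot be told apart.

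Of 58717 spots, 52.18% to 62.75% exceeded background clearly on each array, with 0 saturated. Mat replicates 1 and 3 lay on different slides, yet were closer to each other than any other of the 66 pairs of arrays: the SD of their log2 differences was 0.30, against 0.54 to 0.87 for the other 11 pairs within a group. They may not be independent samples, and values with both averaged as 1 sample are given where they bear on a result. All MH arrays, Mat 1 and Mat 2 shared slide 1, and the other 7 arrays shared slide 2.

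The sequences below are array probes and promoter stretches of the genes on which the results turn. Each probe is 60 bases long and is printed to show what was measured, with positions on the rat build rn4 given by the files where they map it. Apoa2, whose probe had the largest fall among those still above background in every group, lies at chr13:87115432-87115491 (+). Apoa1, whose fall did not pass the test, and Apoc3 are not placed by the files. The Apoc3 sequence is that of the probe that was dimmer on average over the 12 arrays, while the levels given below are those of the brighter probe.
Apoa1: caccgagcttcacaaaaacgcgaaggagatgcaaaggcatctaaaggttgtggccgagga
Apoa2: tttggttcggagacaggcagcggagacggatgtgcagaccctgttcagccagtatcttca
Apoc3: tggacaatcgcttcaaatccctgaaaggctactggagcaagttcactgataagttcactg
Apoe, at chr1:79003795-79003854 (-), and Apoh, at chr10:97732840-97732899 (+), have the following probes.
Apoe: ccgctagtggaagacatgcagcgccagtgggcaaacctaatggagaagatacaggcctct
Apoh: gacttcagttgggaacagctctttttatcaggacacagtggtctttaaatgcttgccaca
The 2 Apob probes lie at chr6:31547488-31547547 and chr6:31547539-31547598 (+) and share 9 bases, in capitals. They read adjoining stretches of 1 gene, with a Pearson r of 0.999 over the 12 arrays, and are not independent evidence.
Apob first: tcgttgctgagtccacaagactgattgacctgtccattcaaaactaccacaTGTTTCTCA
Apob second: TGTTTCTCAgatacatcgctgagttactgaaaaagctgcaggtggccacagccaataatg

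The 4 genes Apoa1, Apoc3, Apoa4 and Apoa5 stand next to each other on chromosome 8 in the RefSeq order. RefSeq promoter windows (build GRCr8) were matched for Apoa4, Apoa5, Apoe, Apof and Apoh, and the 250 bases before the start of Apoa4 (chr8:55435529-55435778, +) and of Apoa5 (chr8:55457621-55457870, +) are shown because both genes fell alike.
Apoa4: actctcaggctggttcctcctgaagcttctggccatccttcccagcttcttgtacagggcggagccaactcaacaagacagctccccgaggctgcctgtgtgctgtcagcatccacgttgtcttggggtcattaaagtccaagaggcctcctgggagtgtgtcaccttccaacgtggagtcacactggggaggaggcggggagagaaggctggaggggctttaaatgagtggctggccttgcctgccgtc
Apoa5: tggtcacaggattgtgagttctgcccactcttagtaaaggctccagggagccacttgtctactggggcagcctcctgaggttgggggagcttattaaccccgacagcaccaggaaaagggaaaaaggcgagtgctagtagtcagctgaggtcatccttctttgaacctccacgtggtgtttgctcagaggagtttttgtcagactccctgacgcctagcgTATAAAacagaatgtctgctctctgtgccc
The capitals in Apoa5 mark TATAAA, the core of a TATA box, 30 bases before the start, which occurs on either strand in 12.9% of the 33469 RefSeq windows of 250 bases. The letters CAAAGTCCA and CAAAGGTCA (sites of HNF4 and of nuclear receptor dimers), TTGCGCAA (C/EBP) and the HNF1 palindrome were searched on both strands in the 8 windows of these genes and did not occur, and they occur in 0.338%, 0.377%, 0.140% and 0.003% of all windows. A match describes letters and shows no bound factor.

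The first question was how the transcripts differed between cultured small hepatocytes and the control hepatocytes. All 13 probes were lower on all 9 cultured arrays than on all 3 MH arrays, a separation that held for 34.5% of the 23641 probes tested. In the mean of the 3 coatings, 12 of the 13 probes and 9 of the 10 genes fell in limma's test (Benjamini-Hochberg adjusted p under 0.05, two-sided), where 72.4% of all probes were called, 41.2% lower and 31.2% higher. The exception was Apoa1. Apof and Mttp, which are in these counts, passed the background filter of the test only through the MH arrays. That they were lower in culture was thus partly set by the filter. Levels below are log2 of the processed signal with the array's 75th percentile set to 0, and differences are cultured minus MH with the standard error of the fit. The median difference was -0.16 over the 23641 probes tested and -0.60 over 45489 probes without the background filter.

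**Figure D1:**
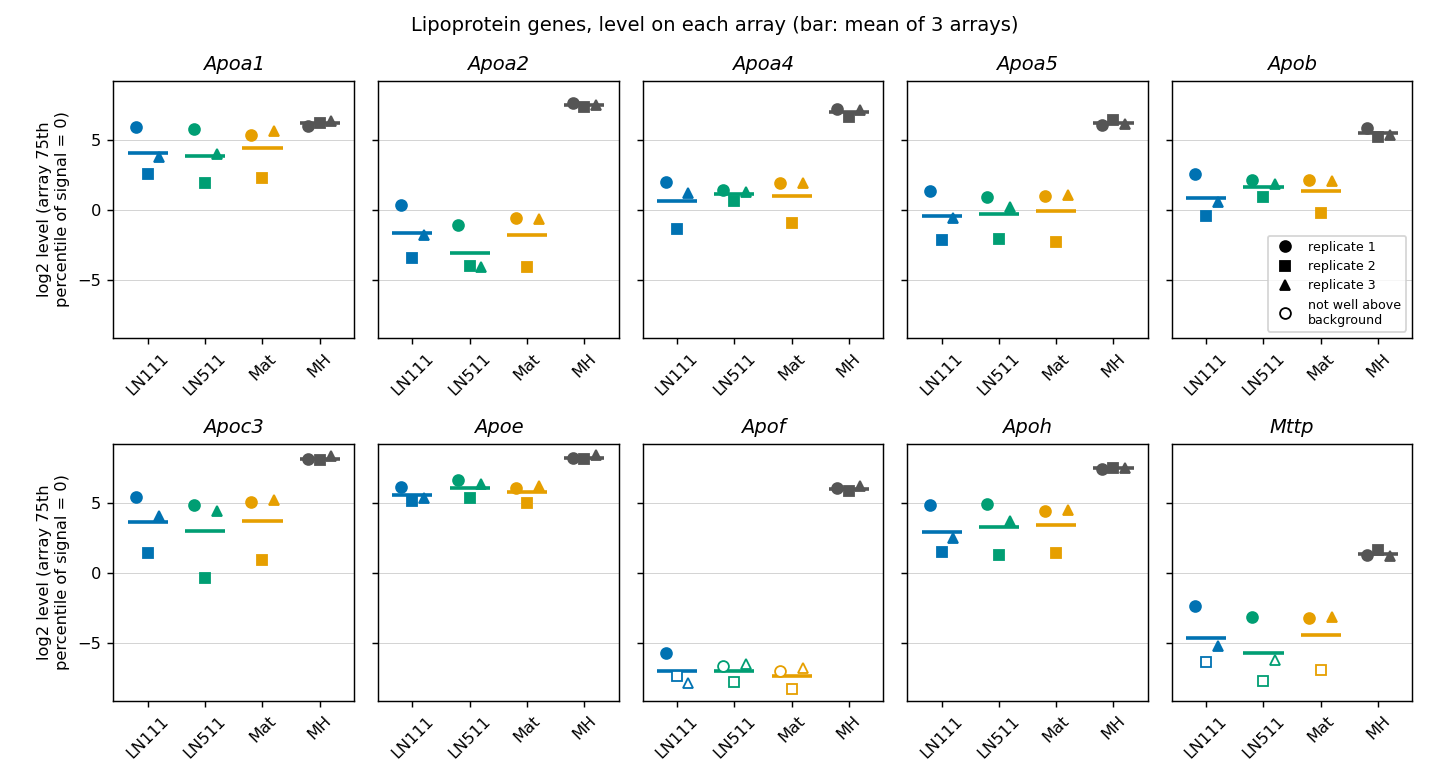
Log2 level of each gene on each array (vertical axis, 75th percentile of the array's signal set to 0) by group, with circles, squares and triangles for replicates 1, 2 and 3, open symbols where the probe was not well above background and a bar at the group mean. The 3 MH arrays lie above the 9 cultured arrays in each panel, and the square is the lowest cultured point of its coating except for Apoa2 in LN511 and Apof in LN111.

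Among the HDL proteins, Apoa1 encodes the main structural protein and activator of cholesterol esterification. Its level was 5.90, 2.59 and 3.80 on the LN111 arrays, 5.77, 1.91 and 3.96 on LN511, 5.34, 2.31 and 5.61 on Mat and 6.02, 6.17 and 6.33 on MH. Replicate 1 of each coating and Mat 3 came within 1 log2 unit of the MH mean, while the replicate 2 arrays lay far below. The difference was -2.04 ± 0.94 (95% confidence interval -4.13 to 0.04, adjusted p = 0.0716, limma). It passed without LN111 replicate 1 (-2.34, adjusted p = 0.0358) or without LN511 replicate 1 (-2.36, adjusted p = 0.0333), and without the 3 cultured replicate 2 arrays it was -1.11 (adjusted p = 0.0939).

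Apoa2, which encodes the second protein of HDL, behaved otherwise. Its level was 0.34, -3.43 and -1.80 in LN111, -1.08, -4.02 and -4.05 in LN511, -0.59, -4.04 and -0.61 in Mat and 7.62, 7.37 and 7.49 in MH. The signal stayed well above background on all 12 arrays, and the MH arrays agreed within an SD of 0.12. Apoa2 fell by 9.63 ± 0.96 (adjusted p = 7.33e-06, limma), a fold of 795. Within an array, Apoa1 minus Apoa2 ranged from 5.56 to 8.01 in the cultured cells and from -1.60 to -1.15 in MH, so the change of the pair differed by 7.59 with no overlap.

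Apof encodes apolipoprotein F, which travels on lipoproteins. Its level in MH was 6.02, 5.81 and 6.16, against -5.73, -7.36 and -7.84 in LN111, -6.66, -7.82 and -6.48 in LN511 and -7.00, -8.30 and -6.78 in Mat. Of the 9 cultured arrays, LN111 replicate 1 alone was well above background. Apof fell by 13.10 ± 0.47 (adjusted p = 5.82e-09, limma), but most cultured values are at background. The standard error and p-value therefore rest largely on background signal. Setting the dim arrays at their lowest signal above background, Apof was at least 3401-fold lower in LN511 and at least 5723-fold lower in Mat than in MH.

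Apob, the structural protein of VLDL, was at 2.56, -0.45 and 0.55 in LN111, 2.13, 0.95 and 1.83 in LN511, 2.13, -0.24 and 2.09 in Mat and 5.84, 5.18 and 5.37 in MH. It fell by 4.18 ± 0.65 (adjusted p = 0.000187, limma), and the other Apob probe by 4.17 ± 0.65. The cultured arrays did not reach within 2 log2 units of MH on either probe.

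Mttp, whose product lipidates apolipoprotein B, was at -2.40, -6.38 and -5.24 in LN111, -3.15, -7.74 and -6.22 in LN511, -3.20, -6.90 and -3.17 in Mat and 1.26, 1.62 and 1.22 in MH. It was not well above background on 4 cultured arrays (LN111 2, LN511 2, LN511 3 and Mat 2), where the value is only a bound. Mttp fell by 6.30 ± 1.12 (adjusted p = 0.000511, limma). That value includes the arrays at background. On the 5 cultured arrays where both probes were well above background, Apob minus Mttp was 4.96 to 5.79, against 3.56 to 4.59 in MH, a difference of 1.22 between the means.

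The proteins that act on triglyceride-rich particles are Apoc3, an inhibitor of lipolysis and uptake, Apoa5, an activator of lipolysis, and Apoa4, carried on chylomicrons and HDL. On its brighter probe Apoc3 was at 5.42, 1.43 and 4.07 in LN111, 4.83, -0.38 and 4.38 in LN511, 5.07, 0.90 and 5.19 in Mat and 8.07, 8.02 and 8.32 in MH. It fell by 4.70 ± 1.28 (adjusted p = 0.00691, limma), and its other probe fell by 5.27 ± 1.33 (adjusted p = 0.0046). Its cultured arrays spanned 5.81 log2 units, and its calls changed with single arrays. In LN111 alone Apoc3 stood at -4.50 (adjusted p = 0.0266, limma) and at -3.39 without LN111 replicate 2 (0.0985), and in Mat alone at -4.42 (0.0284) and at -3.01 without Mat replicate 2 (0.111), and its other probe lost both calls too (0.0789 and 0.0749). Leaving out any 1 MH array ended the calls of the brighter probe in LN111 (-4.40 to -4.56, adjusted p = 0.0563 to 0.0633) and in Mat (-4.33 to -4.48, 0.0594 to 0.0668) with little change in value. The other probe lost a call there only in LN111 without MH replicate 3 (-4.88, adjusted p = 0.051).

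Apoa5 was at 1.35, -2.17 and -0.55 in LN111, 0.96, -2.04 and 0.18 in LN511, 1.00, -2.31 and 1.05 in Mat and 6.05, 6.42 and 6.10 in MH. It fell by 6.47 ± 0.91 (adjusted p = 9.06e-05, limma), a fold of 88.9. Apoa4 was at 2.01, -1.38 and 1.24 in LN111, 1.46, 0.62 and 1.28 in LN511, 1.91, -0.96 and 1.95 in Mat and 7.19, 6.63 and 7.16 in MH. Its probes fell by 6.09 ± 0.74 and 5.94 ± 0.62 (adjusted p = 3.32e-05 and 9.93e-06). On both genes all cultured arrays lay more than 4 log2 units below MH.

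The 4 neighbours of the chromosome 8 cluster therefore changed by unequal amounts. Apoa1 minus Apoc3 within an array was -0.42 to 2.29 in the cultured cells and -2.06 to -1.85 in MH, and Apoa1 minus Apoa5 was 3.78 to 4.81 and -0.25 to 0.23, neither with overlap. Apoa4 minus Apoa5 overlapped, at 0.50 to 2.66 in the cultured cells and 0.21 to 1.14 in MH. Ratios of this kind show unequal change between probes and not that either probe held still.

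Apoe encodes the ligand by which remnant particles are taken up. On 10 spots per array, with an SD over spots of 0.0376 to 0.122, its level was 6.08, 5.13 and 5.33 in LN111, 6.59, 5.33 and 6.31 in LN511, 6.02, 5.002 and 6.19 in Mat and 8.15, 8.09 and 8.36 in MH. Apoe fell by 2.43 ± 0.32 (adjusted p = 6.42e-05, limma), a fold of 5.37, the smallest fall among the 9 called genes. Macrophages also make Apoe, and the macrophage markers listed above were higher in MH. Of the 8 markers, Cd68 was above background on 9 of the 9 cultured arrays, Csf1r on 8, Vsig4 on 6, Clec4f and Cd163 on 1 each, and Cd5l, Marco and Adgre1 on 0. Their part in the fall of Apoe was not tested. With quantile scaling the fall of Apoe no longer passed in LN511 (-0.91, adjusted p = 0.065, limma) or Mat (-0.82, adjusted p = 0.0919).

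Apoh, beta-2-glycoprotein I, a plasma protein that binds anionic phospholipids, was at 4.81, 1.48 and 2.50 in LN111, 4.90, 1.27 and 3.69 in LN511, 4.38, 1.39 and 4.49 in Mat and 7.39, 7.48 and 7.47 in MH. It fell by 4.23 ± 0.91 (adjusted p = 0.00177, limma). The MH arrays agreed within an SD of 0.04, while the cultured arrays spanned 3.63 log2 units.

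**Figure D2:**
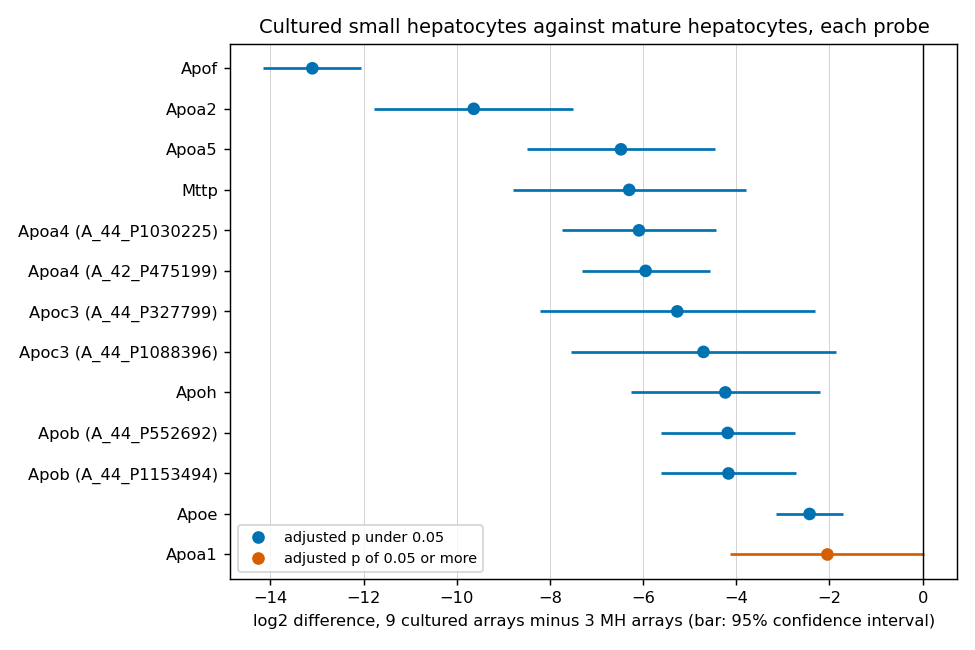
Log2 difference, mean of the 9 cultured arrays minus mean of the 3 MH arrays (horizontal axis), for each of the 13 probes, with the 95% confidence interval of the fit as a bar and colour by adjusted p. The values run from -13.10 for Apof to -2.04 for Apoa1, whose interval alone reaches 0.

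Each coating against MH gave the same count, 12 of 13 probes lower, where 39.1% (LN111), 35.6% (LN511) and 40.3% (Mat) of all probes were lower and 66.2%, 67.1% and 66.5% were called in either direction. These comparisons share the MH arrays. Apof and Mttp are in each of these counts, and their direction was partly set by the background filter, as above. Apoa1 was the probe not called each time, at -2.08 ± 1.15 in LN111, -2.29 ± 1.15 in LN511 and -1.76 ± 1.15 in Mat (adjusted p = 0.133, 0.100 and 0.198, limma). Mat and MH could also be compared on slide 1 alone, with Mat 1 and Mat 2 against the 3 MH arrays: Apoa2 stood at -9.81 (adjusted p = 0.000815), Apob at -4.52 (0.00363), Apoe at -2.69 (0.00159), Apoa1 at -2.35 (0.0637), and 9 of the 10 genes passed. With slide as a block the Apoc3 values were larger, but its call was lost in LN111 on both probes (-6.70 and -7.33, adjusted p = 0.0859 and 0.0727) and in LN511 on its brighter probe (-7.40, 0.0607). The mean of cultured cells then rested on the Mat arrays to bridge the slides and gave 9 called genes, with Apoa1 at -3.43 (adjusted p = 0.105). Averaging Mat 1 and Mat 3 as 1 sample also left 9 genes called.

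The second question, which the study's design puts first, was whether the coating changed these genes. In the fit of the 9 cultured arrays 11 probes of 8 genes could be tested, because Apof and Mttp were not above background on all arrays of any coating. None was called: 0 of 11 probes for LN111 against LN511, where 17.7% of 22331 probes were called, 0 of 11 for LN111 against Mat, where 0% were, 0 of 11 for LN511 against Mat, where 8.01% were, and 0 of 11 in the moderated F test over the 3 coatings, where 12.7% were (limma). At an unadjusted p under 0.05 the count was also 0 of 11 in each, against 32.9%, 12.3%, 22.1% and 29% of all probes, and the smallest p of a member was 0.24, for Apoe in LN111 against LN511.

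The intervals were wide in this fit, whose spread includes the differences between replicate numbers. These data therefore do not show that the coatings act alike on lipoprotein genes. For Apoe the difference LN111 minus LN511 was -0.56 (95% interval -1.57 to 0.46), LN111 minus Mat -0.22 (-1.23 to 0.79) and LN511 minus Mat 0.34 (-0.68 to 1.35). Apoe had the narrowest intervals of the 8 genes, and a change of more than about 3-fold lies outside them. For Apoc3 the interval of LN111 minus LN511 ran from -3.34 to 4.73 around 0.70. Apoa2 had the largest separation of coating means among the tested genes, with LN111 minus LN511 at 1.42 ± 1.32 and LN511 minus Mat at -1.30 ± 1.32 (adjusted p = 0.496 and 0.642, limma). The second was -2.91 with array weights (adjusted p = 0.0139), -0.73 with Mat 1 and Mat 3 averaged (0.918) and -1.96 without the replicate 2 arrays (0.411). For Apob, LN111 minus LN511 was -0.75 ± 0.88 and LN111 minus Mat -0.44 ± 0.88, the last turning to 0.23 without LN111 replicate 2. Within the single slide that holds LN111, LN511 and Mat 3, the count of members called was also 0.

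**Figure D3:**
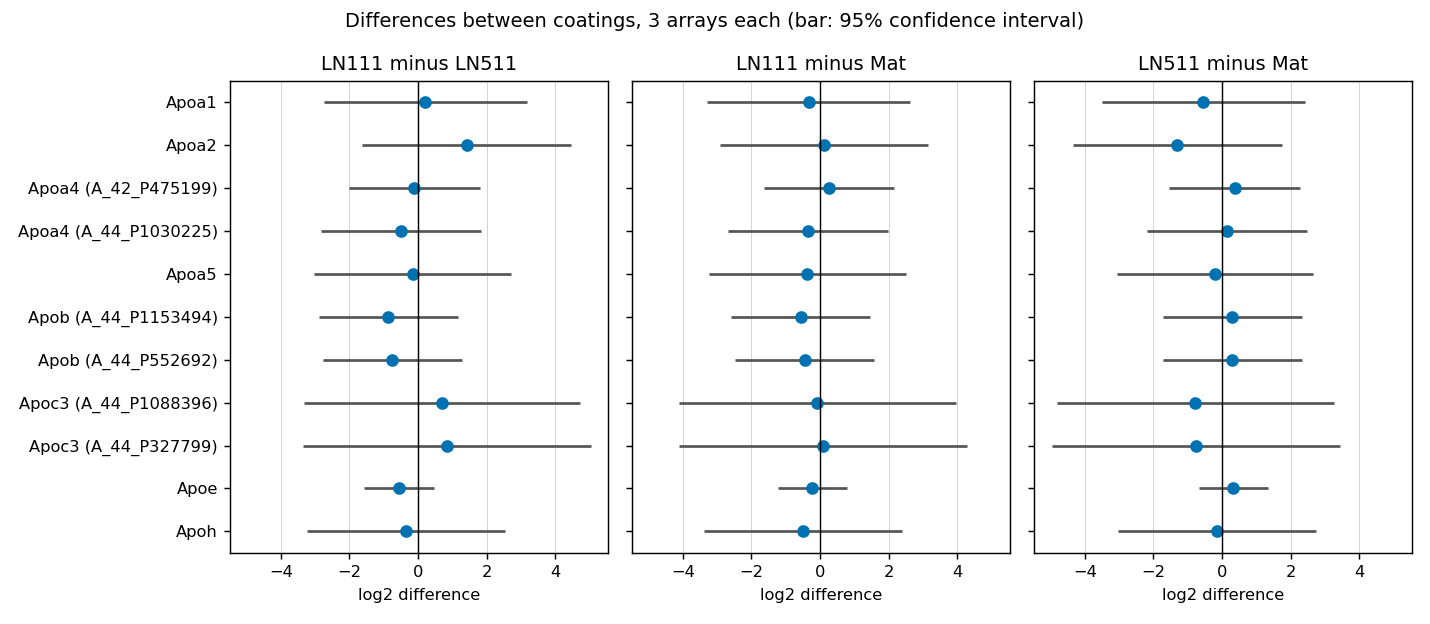
Log2 differences between coatings (horizontal axes) for the 11 probes that could be tested, with 95% confidence intervals of the fit as bars, 3 arrays in each coating. All the intervals shown include 0, and those of Apoe are the narrowest.

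The spread within a coating was large in these genes. Over the 9 cultured arrays the 11 tested probes had a median range of 3.63 log2 units, against 1.04 for all tested probes. The range within a single coating reached 5.22 for Apoc3 and 3.86 for Apoa1, while the means of the 3 coatings lay within 0.78 and 0.54 of each other. Apoe had the smallest range of the 11, 1.59, and 28.95% of all tested probes had a range at least as large. For the 13 probes, replicate number held 54.7% (Apof) to 93.2% (Apoc3) of the squared deviations over the 9 arrays. Coating held 1.08% (Apoa5) to 17.6% (Apoe). The medians over all tested probes were 24.6% for replicate number and 42.2% for coating.

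The same arrays were low in nearly all of the genes. Averaged over the 10 genes, the difference from MH was -4.31, -7.40 and -6.14 in LN111 replicates 1, 2 and 3, -4.77, -7.54 and -5.86 in LN511 and -4.84, -7.66 and -4.75 in Mat. The replicate 2 array was the lowest of its coating in all 3 coatings for 11 of 13 probes, which was so for 12.4% of all tested probes. Apoa2, whose LN511 replicate 3 lay just under replicate 2, and Apof, mostly at background, were the other 2. The labels do not say whether a replicate number stands for a shared culture or day.

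The pattern was shared by other hepatocyte genes and was not confined to them. Of the 10 hepatocyte markers, 6 were lowest on replicate 2 in all 3 coatings: Alb, Cps1, Serpina1, Fgb, Asgr1 and Cyp2e1. Serpina1, for example, was at 6.25, 3.95 and 4.87 in LN111, 6.58, 3.55 and 5.95 in LN511 and 5.88, 3.64 and 6.22 in Mat. The drop in Alb (albumin) was small, with 5.75, 5.69 and 6.12 in LN111, 6.53, 6.12 and 6.48 in LN511 and 5.53, 5.29 and 5.87 in Mat. Ttr, Tf and Ahsg were lowest on replicate 2 in 2 of 3 coatings. Hnf4a, a transcription factor that acts on many of these genes, was highest on replicate 2 in LN111 (2.498) and Mat (2.87) and lowest there in LN511 (0.55). Of the 8 progenitor or biliary markers, 2 were highest on replicate 2 in every coating, the keratins Krt7 (3.89, 5.35 and 4.63) and Krt19 (4.24, 4.74 and 4.31), and 1 was lowest there, Cldn4 (1.78, 4.12 and 2.23). The other 5 (Sox9, Epcam, Cd44, Spp1 and Prom1) differed between coatings. Of the 7 stellate cell or fibroblast markers, 4 (Des, Reln, Dcn and Pdgfrb) were lowest on replicate 2 in all 3 coatings and 1 (Lrat) was highest. Of 3 mesothelial markers 2 were lowest there (Wt1 and Krt14) and 1 highest (Msln). The counts were 2 and 1 of 8 Kupffer cell or macrophage markers and 2 and 0 of 6 sinusoidal endothelial markers. Adgre1 and Pecam1, among those lowest there, were above background on 0 of the 9 cultured arrays, so their ranks are those of background signal. Cps1 was above background on 5 of the 9. The part of any of these in the low lipoprotein signal was not tested.

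**Figure D4:**
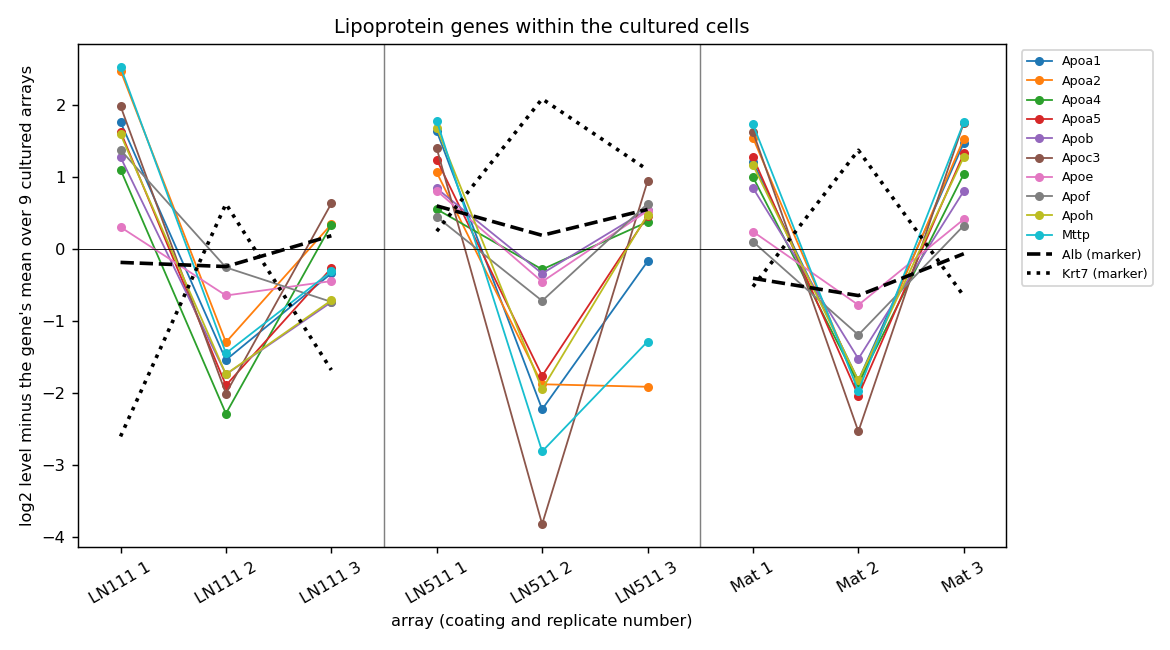
Log2 level of each of the 10 genes on the 9 cultured arrays minus its own mean over them (vertical axis), with Alb (dashed) and Krt7 (dotted) for comparison; lines join the arrays of a coating for each gene and imply no order. Most of the 10 genes dip together on the replicate 2 arrays, Alb moves by less than 1 log2 unit and Krt7, one of 8 progenitor or biliary markers, is highest there.

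As a description over 9 arrays that share their source, the 45 pairs of genes had correlations of 0.57 to 0.99 (Pearson, median 0.84), lowest for Apoa2 with Apoe and highest for Apoa5 with Apoh. Apoa1, which differed least from MH, followed Apoa5 (0.98) and Apoh (0.98) closely within the cultured cells. The 5 named genes whose pattern over the 9 arrays was most like the mean of the 10 genes were Akr1d1, a bile acid synthesis enzyme (r = 0.995), Gnmt, glycine methyltransferase (0.994), Slc38a3, a glutamine transporter (0.993), Dpt (0.993) and Serpina11 (0.993). Of all 22331 probes, 1.68% had r of at least 0.9.

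Other genes, related by name or pathway, were read from fixed lists in the same fit, with one probe a gene. Whether each listed gene takes part in lipoproteins was not tested. In the lists of other apolipoproteins, Apob lipidation and HDL, 11, 22 and 10 genes were tested against MH. Only 10, 19 and 9 could be tested in the fit of the 9 cultured arrays. The rest passed the background filter only through the MH arrays, so their direction was partly set by the filter. Of 11 genes tested in the list of other apolipoproteins, 10 were lower and 0 higher in cultured cells than in MH, with a median of -3.74. Of all probes tested, 41.2% were lower and 31.2% higher. Those with the smallest p were Apool (-1.64 ± 0.12), Apol3 (-3.74 ± 0.27), Apol9a (-2.33 ± 0.19) and Apon (-8.14 ± 0.95, above background on 5 of 9 cultured arrays). Apoc4, Apoc2 and Apoc1, neighbours of Apoe on chromosome 1, were also lower, at -4.86 ± 0.84, -5.60 ± 1.10 and -3.62 ± 0.98. Clu, an apolipoprotein of many tissues, stood at 0.08 ± 0.27 (adjusted p = 0.80, limma). Apoo was lower (-0.98 ± 0.15) but stood at 0.07 with no scaling between arrays.

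In the list for editing of Apob mRNA, lipidation and VLDL export, 19 of 22 genes were lower and 0 higher, with a median of -2.40. The shares of all probes were 41.2% and 31.2%. The smallest p belonged to Aadac (-5.74 ± 0.20), a lipase of the endoplasmic reticulum, Mia2 (-1.99 ± 0.12), which helps load large cargo at its exit sites, and Sec23a and Sar1b of the COPII coat (-1.71 ± 0.11 and -2.35 ± 0.17). P4hb, the partner subunit of Mttp, was at -0.94 ± 0.21, but at 0.08 with quantile scaling and 0.10 with no scaling, where Canx also changed sign. Sec24c changed sign with no scaling.

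For HDL formation and remodelling, 7 of 10 genes were lower and 1 higher (41.2% and 31.2% of all probes), with a median of -3.86. Hepatic lipase Lipc fell by 5.34 ± 0.24, Lcat, which Apoa1 activates, by 6.61 ± 0.66 and the phospholipid transfer protein Pltp by 3.20 ± 0.27, while the cholesterol exporter Abcg1 rose by 3.58 ± 0.22. Abca1, which loads Apoa1 with cholesterol, was at -0.57 ± 0.34 (adjusted p = 0.156, limma).

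Of 15 genes of lipolysis and lipoprotein receptors, 6 were lower and 5 higher, with a median of -0.19, shares near those of all probes (41.2% and 31.2%). The receptor Vldlr was above background on all 9 cultured arrays and on 0 of 3 in MH, and was at least 1.33-fold higher in the cultured cells. Its fitted difference was 2.52 ± 0.22 (adjusted p = 2.41e-06, limma), and 0.10 (adjusted p = 0.628, limma) with normexp background correction. Vldlr passed the background filter only through the cultured arrays, as did Lpl, which was at least 19-fold higher there. That Vldlr and Lpl were higher in culture was thus partly set by the filter. Lipa (-2.66 ± 0.24), the lysosomal acid lipase, and Angptl8 (-1.83 ± 0.21), a secreted regulator of lipoprotein lipase, fell. Lrpap1 changed sign with quantile scaling and with none.

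Of 25 transcription factors known to act on apolipoprotein genes, 21 were lower and 0 higher (41.2% and 31.2% of all probes), with a median of -2.14. Nr1h4 (-5.87 ± 0.20), the bile acid receptor, Nr1h3 (-4.17 ± 0.24), the oxysterol receptor, Rxra (-2.83 ± 0.17), their partner, and Cebpa (-3.77 ± 0.23) had the smallest p. Cebpb, Nr2f2 and Rora changed sign with no scaling. Over all probes 56.9% of calls were lower, a split that was 74.4% with normexp, 43.8% with quantile scaling and 21.5% with no scaling. Quantile scaling gave 9 lower and 1 higher, 15 and 2, 7 and 2, 5 and 6, and 17 and 0 in the 5 lists in the order given. No scaling gave 9 and 1, 14 and 2, 6 and 2, 4 and 9, and 11 and 2.

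Between coatings, some genes of the lists were called. In LN111 against LN511, Pltp was higher by 2.34 ± 0.36 (adjusted p = 0.00585, limma), Lrp1, a receptor for Apoe-bearing remnants, by 1.89 ± 0.29 (0.00548), while Lsr, the lipolysis-stimulated lipoprotein receptor, was lower by 1.499 ± 0.26 (0.00853). Counts in this comparison were 1 lower and 0 higher of 10 other apolipoproteins, 2 and 1 of 19 for Apob lipidation, 1 and 1 of 9 for HDL, 2 and 1 of 15 for lipolysis and receptors, and 3 and 3 of 25 transcription factors, where 11.7% of all probes were lower and 6.02% higher. Pltp is in the lists for Apob lipidation and for HDL and is the 1 higher gene of each. It is also counted in both lists against MH. In LN511 against Mat, 1.13% of all probes were lower and 6.87% higher. There Apol9a (0.96 ± 0.22) and Aadac (1.37 ± 0.24) were higher, and 1 transcription factor, Ppargc1b, not above background in LN511, was lower. All LN511 arrays lay on slide 2 but Mat 1 and Mat 2 on slide 1, so coating and slide are partly confounded here. With slide as a block the calls over all probes went from 1788 to 83, and within slide 2 they were 100. Whether these genes kept their calls is not given here. In LN111 against Mat 0 genes of the 5 lists were called, as for all probes.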

How the data were processed

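RNA input was 100 ng per array (Cy3), per the labels. Per the file headers, images were read with Agilent Feature Extraction (10.7 per the submitters' processing notes), and the deposited intensity is a background-subtracted, detrended processed signal with surrogates for low values. The authors' deposited value table held the same intensity on a linear scale (differences up to 0.0072 log2), not scaled or centred, with column medians of 61.8, 59.0 and 45.1 for LN111, then 45.5, 49.0 and 43.6 for LN511. The medians were 85.5, 90.9 and 57.5 for Mat, then 27.5, 27.6 and 23.6 for MH.

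Log2 of the intensity minus each array's 75th percentile was computed, without control or outlier-marked spots (109 of 45598 probes lost), and spots of a probe were averaged. Probes well above background on all arrays of 1 group or more were tested with limma 3.58.1 (lmFit, eBayes, R 4.3.3): 23641 in a fit of all 12 arrays and 22331 in a fit of the 9 cultured arrays, with Benjamini-Hochberg adjustment over all probes. A gene with 2 probes is represented by the brighter. Of each list, up to 4 genes with the smallest p were to be named. Apoc4, Apoc2, Apoc1, Clu, Apoo, P4hb, Canx, Sec24c, Abca1, Lpl, Lrpap1, Cebpb, Nr2f2 and Rora were added after their values were seen. The genes and lists were chosen with earlier results of these data known. "At least" folds set dim arrays at the lowest signal above background. Tests were tried on simulated data, and alternatives are in the closing section. The number of arrays limits precision. Some genes of the lists are counted but not reported here by name.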

Additional observations from a re-analysis of the deposited data

How the results depend on the processing

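Against MH, 1293 values of the 13 probes were recomputed under the alternatives: 0 changed direction, 23 lost their call and 8 gained it. Besides the changes given with Apoa1, Apoc3 and Apoe, Apoh lost its call in Mat with quantile scaling (-2.56, limma adjusted p = 0.0716), Apoe lost it in Mat with no scaling (-0.85, adjusted p = 0.0691), and Apoc3 lost it in LN111 and Mat with quantile scaling (-3.13 and -3.06, adjusted p = 0.110 and 0.119, and -3.67 and -3.73, 0.0776 and 0.074, on its other probe) and in Mat with no scaling (-2.81, adjusted p = 0.0784). Apoa1 gained a call in LN511 with array weights (-2.27, adjusted p = 0.0339) and without LN511 replicate 1 (-3.24, adjusted p = 0.034), and in LN111 without LN111 replicate 1 (-2.98, adjusted p = 0.0496). Between coatings, 110 of 750 recomputed values of the 11 probes changed sign and 1 was called. Array weights gave 1 called gene in LN511 against Mat, Apoa2 (-2.91, adjusted p = 0.0139), and 1 in the F test. Apob in LN111 minus Mat became 0.23 without LN111 replicate 2 (adjusted p = 0.913) and was -1.28 without LN111 replicate 1. The cause of these changes was not tested.

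With the replicate number as a block (replicate block), Apoa1 passed in the cultured mean (-2.04, adjusted p = 0.0147), LN111 (-2.08, adjusted p = 0.0353) and LN511 (-2.29, adjusted p = 0.0233), so 10 genes were called there, and 0 between coatings. The numbers were not taken to pair the samples, because not every pair's deviations correlated above 0.1. For LN111 with LN511, LN111 with Mat and LN511 with Mat they were 0.48, 0.54 and 0.58 for replicate 1, 0.54, 0.72 and 0.75 for replicate 2, and 0.09, 0.09 and 0.15 for replicate 3. Across numbers, Mat replicate 3 correlated with replicate 1 of LN111 (0.53) and of LN511 (0.56). Calls over all probes under the block were 5988 for LN111 against LN511, 2935 for LN511 against Mat and 4774 in the F test.

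Calls over all probes moved by over 1.5 times as follows, in the order cultured, LN111, LN511 and Mat against MH where given. No filter gave 28611, 24273 (LN111) and 28983 (Mat), the strict filter 11298, 10368 and 10309 (LN511), and the slide block 9998 (LN111) and 10310 (LN511). For LN511 against Mat the counts were 5025 with normexp, 13300 with no scaling, 968 with the strict filter, 83 with the slide block, 9581 with array weights, 834 with Mat replicates 1 and 3 averaged and 100 within slide 2. The F test gave 4441, 7467, 1756, 1540, 8307, 1738 and 927 in the same order. LN111 against LN511 gave 2374 with no scaling and 2117 within slide 2, and LN111 against Mat gave 1, 1 and 39 with no scaling, array weights and within slide 2. With 1 array left out the counts ran from 2200 (without LN511 replicate 3) to 5132 for LN111 against LN511, 0 to 8 (without LN111 replicate 2) for LN111 against Mat, 709 (without Mat replicate 1) to 2122 for LN511 against Mat and 1322 (without LN511 replicate 3) to 3627 in the F test. LN111 against LN511 also fell to 2478 without LN511 replicate 2, and the F test to 1351, 1670 and 1634 without LN511 replicate 2, LN511 replicate 1 and Mat replicate 1. LN511 against Mat also fell to 908, 1028, 1114 and 944 without LN511 replicate 2, LN511 replicate 3, Mat replicate 2 and Mat replicate 3, and to 888 without the cultured replicate 2 arrays. Averaging Mat 1 and 3, and leaving out the cultured replicate 2 arrays, were chosen after seeing the data. Signal over background limits Apof and Mttp in the cultured cells.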
